A study of Mus musculus with 16 samples.

Results

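The left ventricular free wall of mice with a pulmonary artery band was compared with that of sham-operated mice, in 8 of the study's 16 libraries, 4 per group. All came from adult male FVB mice, an inbred strain, aged 10 to 13 weeks, and the labels name no allele, transgene or drug. The banded group is labelled PS, which was read as banding because the treatment text names only banding and sham surgery. The remaining 8 libraries, from the right ventricles of a banded and a sham group, enter only where the ventricles are compared. The band narrows the outflow of the right ventricle, so the left is the chamber that it does not load directly. Time after surgery, pooling of animals and whether right and left libraries share a mouse were not given in the sources used here. The p-values therefore measure the spread between these libraries, which may be technical.

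As background, the ventricles share a septum, a pericardium and the same circulating hormones, and left filling depends on right output. Overloaded cardiomyocytes are known to bring back genes of the fetal heart, among them those for natriuretic peptides and beta myosin, and to lose part of their ion channel and fatty acid oxidation programmes. Fibroblasts around them are known to deposit collagen and matricellular proteins, which signal to cells as well as holding the tissue together.

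The ventricular label was checked against markers. Myl2, a myosin light chain that both ventricles express, stood at 5275 to 9457 FPKM in the sham and 14072 to 18332 FPKM in the banded libraries, while none of the 6 lung epithelial genes listed reached the level needed for testing. Of 2 transcription factors known for the left side, Tbx5 stood at 6.06, 8.09, 6.09 and 7.26 FPKM in the sham and 15.04, 8.77, 8.51 and 9.87 FPKM in the banded libraries, and Hand1 was listed at 0 in all of them but banded PS_9553 (0.0581 FPKM). In the right banded libraries Tbx5 averaged 5.41 ± 1.25 FPKM (n = 4), and these markers do not by themselves tell the left wall from the right. Atrial and pancreatic islet transcripts were also present, with Myl7 at up to 124 FPKM and islet markers summing to as much as 2094 FPKM in a sham library, and are described with the other cell types. Here and below, per-library values follow the order sham 1, 2, 3 and 4, then banded PS_9552, PS_9553, PS_9561 and PS_9564. FPKM are fragments scaled to transcript length and library total. The libraries held an estimated 2.09e+06 to 4.47e+06 fragments in the sham group and 3.55e+06 to 9.12e+06 in the banded group, and listed 13646 to 14462 and 14342 to 15801 genes above 0. A single small RNA entry, Mir6236, took 31.3 to 48.0% of the FPKM sum of these libraries. The entry for precursor ribosomal RNA, Rn45s, had a value of 0 in banded PS_9552, PS_9553 and PS_9561. It stood at 56742 FPKM in PS_9564 and at 44335 to 64943 FPKM in the sham libraries. The typical level of the 3 libraries at 0 was higher too, with scale factors (the median ratio to the mean library) of 1.28, 1.23 and 1.28, against 0.976 in PS_9564 and 0.840 to 0.974 in the sham libraries. In the left ventricle the group and this property cannot be told apart except through PS_9564. Right banded PS_9561 and PS_9564 also had an Rn45s value of 0, with scale factors of 1.22 and 1.26. The right sham libraries stood at 48842 to 62338 FPKM. A fit limited to the libraries with an Rn45s value, in which PS_9564 is the only left banded one, called 3 genes, of which 0 were among the calls described below.

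Each of 12100 genes, of 23946 listed, was tested both as deposited and after division by the scale factors. A gene "rose" or "fell" where limma's test, with Benjamini-Hochberg adjustment over all 12100 genes, passed 0.05 in the same direction on both scales. By that rule 295 genes rose (2.44%) and 36 fell (0.298%) in the banded left ventricle. These shares are the background for each count of list members below. The rule is uneven, because the median gene lay 0.33 higher (log2) as deposited and 0.01 higher rescaled. Rescaled values alone gave 295 rises and 190 falls (1.57%), and deposited values alone 1725 rises (14.3%) and 39 falls (0.322%). The authors' deposited table of group values has a median log2 difference of -0.00929 between the left groups, near the rescaled median. Quantile normalization gave 245 rises and 266 falls, and a correction for transcript length and GC content 266 and 153. The banded and sham libraries did not overlap on either scale in 280 of the rises and 30 of the falls. Over all tested genes 8.77% lay above and 0.942% below without overlap on both scales (7.79% below when rescaled). As deposited, the scale of the per-library FPKM given below, 22.2% of all tested genes lay above and 0.942% below without overlap. Rises with a log2 change of 1 or more numbered 257 as deposited and 88 rescaled, and falls of that size 13 and 32. The calls were sensitive to single libraries, with 45 to 572 genes called when 1 was left out, lowest without sham 2 and highest without sham 4. In all 8 such fits 32 rises and 6 falls were kept, so most calls were lost in at least 1 of them. For 17 of the 72 called genes that the naming rule picked, the rescaled group change was over 1.5 times that of PS_9564 alone, the widest gaps being in Mfap5 (1.17 against 0.36), Itgb1 (0.62 against 0.19), Postn (1.62 against 0.59) and Vim (0.80 against 0.32).

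**Figure D1:**
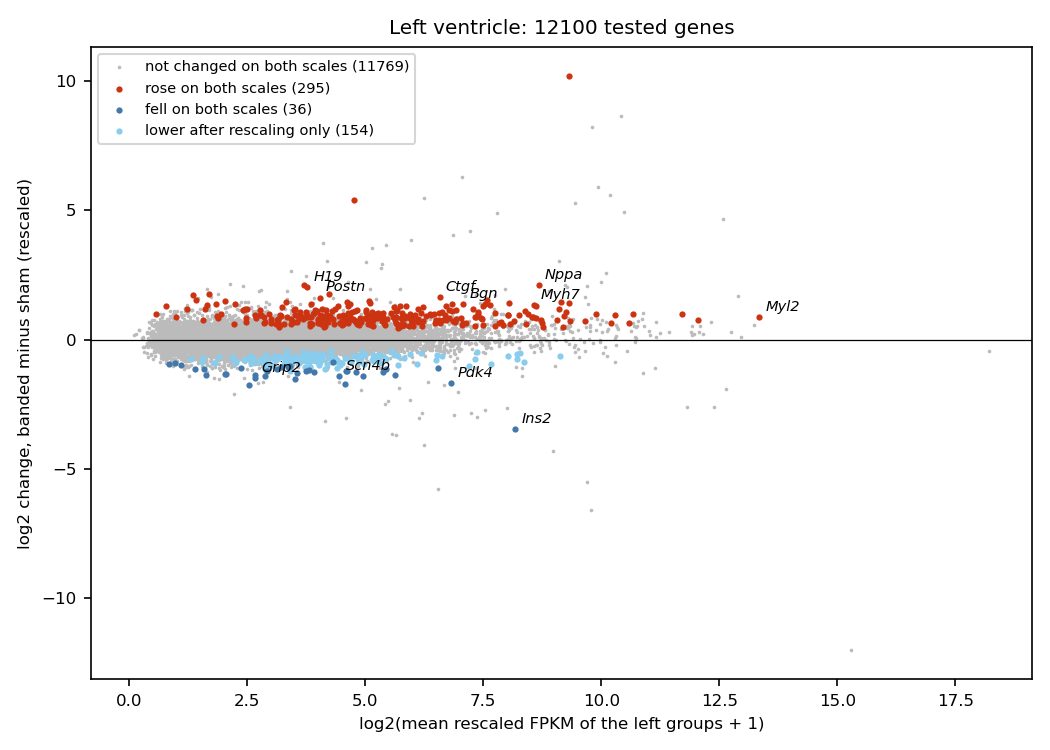
Change of each of the 12100 tested genes (y axis, log2 of banded minus sham left ventricle on rescaled FPKM + 1) against its mean rescaled level (x axis, log2). Points are genes, red where the gene rose and dark blue where it fell on both scales, and light blue where it was lower after rescaling only. Nppa, Ctgf and H19 stand well above 0 and Ins2 is the lowest called gene. The highest red point is Snord82, listed at 0 in all 4 sham libraries.

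The marker genes of cardiac overload were split. Nppa, encoding atrial natriuretic peptide, a hormone that promotes salt loss and dilates vessels, stood at 224, 101, 157 and 85.9 FPKM in the sham and 605, 1147, 881 and 532 FPKM in the banded libraries. The 4 banded values all lay above the 4 sham values, with PS_9553 the highest. Nppa rose 5.57-fold as deposited and 4.19-fold rescaled (log2 change 2.505 (SE 0.33), limma adjusted p = 0.000701, rescaled 2.10, adjusted p = 0.00838). Its partner Nppb, encoding brain natriuretic peptide, stood at 385, 353, 208 and 232 FPKM in the sham and 238, 1099, 633 and 330.3 FPKM in the banded libraries, with overlapping groups and only PS_9553 and PS_9561 above all sham libraries, and did not pass the test (log2 change 0.76 (SE 0.43), limma adjusted p = 0.241, rescaled 0.36, adjusted p = 0.713).

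Myh7, the slow beta myosin heavy chain, stood at 229, 167, 174 and 197 FPKM in the sham and 455, 828, 904 and 471 FPKM in the banded libraries. It rose 3.46-fold as deposited and 2.59-fold rescaled (log2 change 1.73 (SE 0.28), limma adjusted p = 0.00154, rescaled 1.32, adjusted p = 0.00881), and PS_9553 and PS_9561 were again the higher pair. Its fast alpha counterpart Myh6, the main myosin of the adult mouse ventricle, stood at 1891, 1826, 1759 and 2414 FPKM in the sham and 3828, 2522, 3615 and 2713 FPKM in the banded libraries and passed as deposited only (log2 change 0.67, adjusted p = 0.0325, rescaled 0.26, adjusted p = 0.415, limma). The fetal-type actin Acta1 had 180.3, 192, 161 and 343 FPKM in the sham and 260.1, 464, 776 and 337 FPKM in the banded libraries, where sham 4 alone reached the banded range, and it did not pass (log2 change 1.01, rescaled 0.60).

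Stretch and cytoskeletal genes followed. Ctgf, a matricellular growth factor, stood at 51.7, 34.8, 34.1 and 34.8 FPKM in the sham and 107, 298, 195 and 103 FPKM in the banded libraries and rose 4.52-fold as deposited and 3.38-fold rescaled (log2 change 2.03 (SE 0.29), limma adjusted p = 0.00109, rescaled 1.63, adjusted p = 0.0101). Des, which encodes the muscle intermediate filament desmin, stood at 324, 297, 302 and 515 FPKM in the sham and 1021, 882, 1165 and 822 FPKM in the banded libraries and rose 2.70-fold as deposited and 2.03-fold rescaled (log2 change 1.46 (SE 0.18), limma adjusted p = 0.000701, rescaled 1.05, adjusted p = 0.00740). Neither gene's groups overlapped, and both stayed called without any single library. Xirp2, an actin-binding protein of the intercalated disc, also rose (29.5, 15.2, 20.6 and 30.7 against 48.0, 120.2, 130.5 and 39.9 FPKM, log2 change 1.64, rescaled 1.24). Ankrd1, a titin-binding stretch-responsive protein, stood at 1638, 924, 991 and 859.9 FPKM in the sham and 2033, 4042, 4551 and 1816 FPKM in the banded libraries and passed as deposited but not rescaled (limma adjusted p = 0.0103 and 0.0574). Of the 19 tested genes in the hypertrophy and fetal list, 5 rose and 0 fell, against 2.44% and 0.298% of all genes, and the list's median change was 0.88 as deposited and 0.47 rescaled, against 0.33 and 0.01 over all genes. The list was not shifted alike in all banded libraries. Its rescaled median deviation from the sham mean was 0.14, 0.97, 0.92 and 0.13 in the banded libraries and 0.14, -0.12, -0.04 and 0.09 in the sham libraries, so PS_9552 and PS_9564 lay within the sham range.

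**Figure D2:**
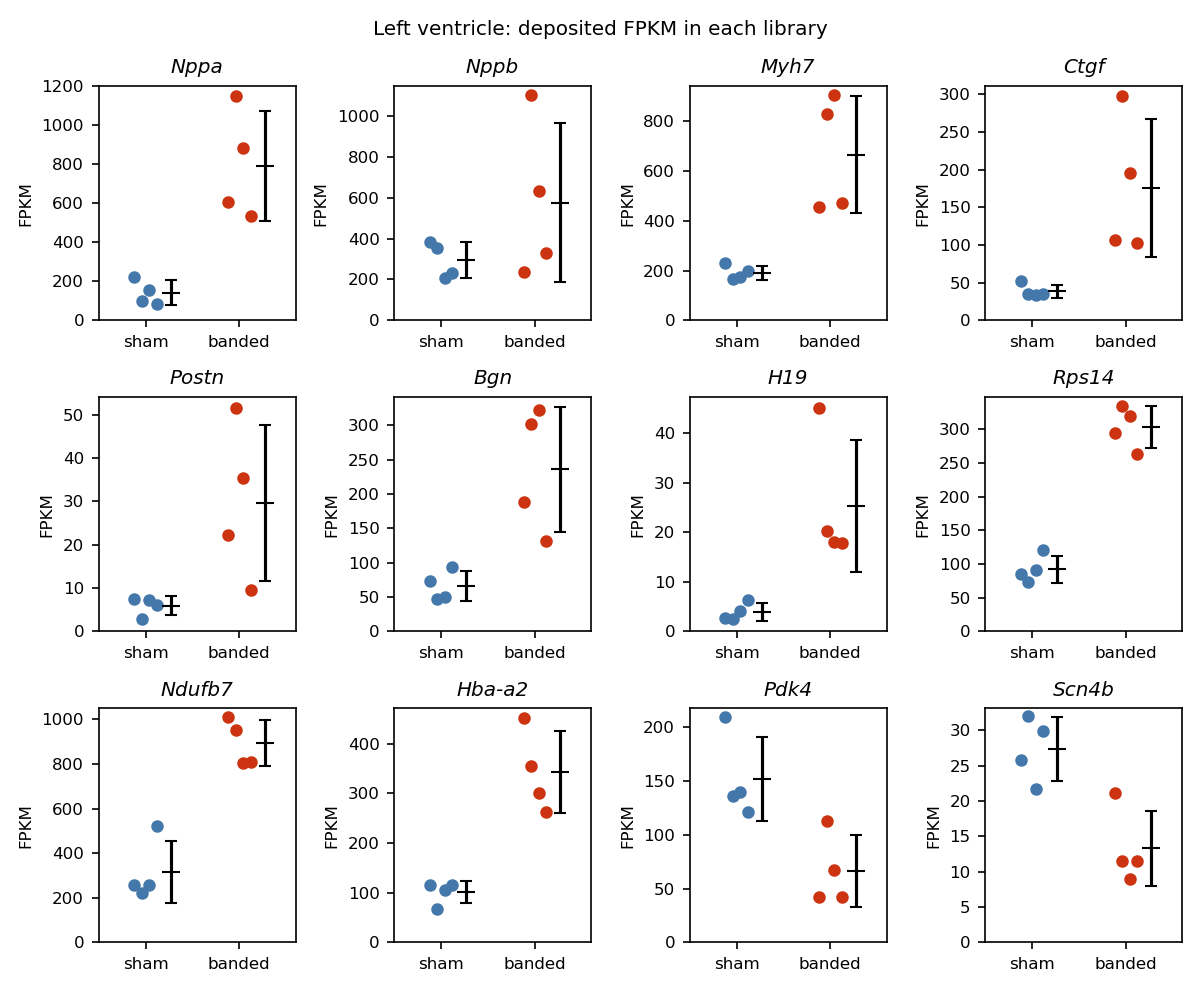
Deposited FPKM (y axis, from 0, scaled per gene) of 12 genes in the 4 sham (blue) and 4 banded (red) left ventricular libraries, each point 1 library, with the mean and SD in black. Nppa, Myh7, Ctgf, Bgn, H19, Rps14, Ndufb7 and Hba-a2 show no overlap between groups, Pdk4 and Scn4b lie lower in all banded libraries, and Nppb overlaps.

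The promoter windows of 2 genes that rose and 2 that fell are shown because these genes carry the peptide, myosin, channel and fuel results. They run from 250 bases before to 50 after the annotated start, 5′ to 3′ on the gene's strand, and are credited to RefSeq on GRCm38.p6, a later build than the mm9 of the expression files. Capitals mark GATAA (the core bound by GATA factors), CATTCC (the MCAT element of TEAD factors) and TATAAA (the TATA box), each searched on both strands. A match on the opposite strand is shown as its reverse complement. No marked match overlaps another. The windows lie at chr4:148000472-148000771, plus strand for Nppa, chr14:54994577-54994876, minus strand for the upstream of 2 Myh7 starts, chr9:45138374-45138673, plus strand for Scn4b and chr6:5496229-5496528, minus strand for Pdk4.
Nppa: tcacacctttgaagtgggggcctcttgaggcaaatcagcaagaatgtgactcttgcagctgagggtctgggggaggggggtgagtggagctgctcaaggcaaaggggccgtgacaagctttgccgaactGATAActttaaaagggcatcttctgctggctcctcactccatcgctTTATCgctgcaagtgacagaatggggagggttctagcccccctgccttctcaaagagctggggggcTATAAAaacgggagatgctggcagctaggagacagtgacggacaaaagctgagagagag
Myh7: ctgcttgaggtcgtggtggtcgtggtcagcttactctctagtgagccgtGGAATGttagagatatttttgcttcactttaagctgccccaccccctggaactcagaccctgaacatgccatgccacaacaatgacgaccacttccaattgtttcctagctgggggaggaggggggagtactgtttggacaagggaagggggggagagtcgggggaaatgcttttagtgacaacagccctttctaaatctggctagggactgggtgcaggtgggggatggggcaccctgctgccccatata
Scn4b: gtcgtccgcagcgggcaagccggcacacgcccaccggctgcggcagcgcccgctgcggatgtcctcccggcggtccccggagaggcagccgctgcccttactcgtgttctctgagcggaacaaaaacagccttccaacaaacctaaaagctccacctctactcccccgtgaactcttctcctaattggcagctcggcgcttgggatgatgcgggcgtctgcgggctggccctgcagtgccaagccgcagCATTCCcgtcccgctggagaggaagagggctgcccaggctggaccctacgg
Pdk4: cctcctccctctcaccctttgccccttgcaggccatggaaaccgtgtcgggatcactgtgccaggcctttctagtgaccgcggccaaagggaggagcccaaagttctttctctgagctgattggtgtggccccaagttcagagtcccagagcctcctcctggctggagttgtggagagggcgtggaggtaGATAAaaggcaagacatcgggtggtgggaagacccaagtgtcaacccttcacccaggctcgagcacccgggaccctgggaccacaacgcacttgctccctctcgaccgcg
Nppa holds 2 GATAA matches, 121 and 75 bases before the start, and a TATAAA match 9 bases before it. The Myh7 window holds 1 CATTCC match, 201 bases before its start on the opposite strand, and the window of the other Myh7 start holds no match of these 3. In Scn4b a CATTCC match begins at the last base before the start, and in Pdk4 a GATAA match lies 60 bases before it. Of 32851 mouse promoter windows of this length, 25.4% hold GATAA, 14.7% CATTCC and 13.6% TATAAA, so matches to these letters are common.

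Of the adult contractile apparatus, 7 genes rose. Myoz2, a Z-disc protein that binds calcineurin, stood at 297, 243, 257 and 488 FPKM in the sham and 1143, 1223, 1262 and 800.3 FPKM in the banded libraries and rose 3.45-fold as deposited and 2.58-fold rescaled (log2 change 1.82 (SE 0.22), limma adjusted p = 0.000701, rescaled 1.41, adjusted p = 0.00357). Tnnc1, the calcium-binding troponin subunit, stood at 1948, 1480.2, 1864 and 2834 FPKM in the sham and 6369, 6452, 4803 and 3689 FPKM in the banded libraries and rose 2.62-fold as deposited and 1.96-fold rescaled (log2 change 1.39 (SE 0.24), limma adjusted p = 0.00241, rescaled 0.99, adjusted p = 0.0140). Both genes had every banded library above every sham library, and sham 4 was the highest sham library of each. Tnni3, the inhibitory cardiac troponin, had a mean ± SD that rose from 2829 ± 747 to 6258 ± 1126 FPKM over 4 libraries each (log2 change 1.16, rescaled 0.75), and Myl2 from 6648 ± 1899 to 15814 ± 1822 FPKM (log2 change 1.28, rescaled 0.87). Myl2 kept its call in 1 of the 8 fits without a library and lost it after the length and GC correction (log2 0.57, limma adjusted p = 0.0719) and with TPM scaling (adjusted p = 0.0864). Actn2, the Z-disc alpha-actinin, stood at 430.4, 382, 398 and 525 FPKM in the sham and 856, 812, 951 and 635 FPKM in the banded libraries (log2 change 0.90, rescaled 0.49). Of 22 tested genes of the adult sarcomere 7 rose and 0 fell, the others being Myom2 and Lmod2, and the median was 0.73 as deposited and 0.33 rescaled. Unlike the hypertrophy list, this one lay above the sham range in each banded library (rescaled medians 0.44, 0.44, 0.35 and 0.36 against -0.10, -0.11, -0.05 and 0.19).

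Titin and the calcium-cycling genes gave no call. Ttn stood at 121, 103, 123 and 117 FPKM in the sham and 125, 169, 184 and 116 FPKM in the banded libraries (log2 change 0.33, rescaled -0.07), and Ryr2, the sarcoplasmic calcium release channel, at 123, 107, 128 and 127 FPKM in the sham and 144, 129, 145 and 99.5 FPKM in the banded libraries (log2 change 0.08, rescaled -0.32). Atp2a2, the calcium pump that refills the sarcoplasmic reticulum, had 1555, 1172, 1509 and 1954 FPKM in the sham and 1766, 1402, 1425 and 1435 FPKM in the banded libraries, and its change did not pass (log2 change -0.02 (SE 0.19), limma adjusted p = 0.955, rescaled -0.43, adjusted p = 0.235). None of the 19 tested calcium-handling genes rose or fell, and their median was 0.45 as deposited and 0.04 rescaled. At an unadjusted limma p under 0.05 on both scales, 4 were higher and 0 lower. Over all 12100 genes 1286 were higher and 127 lower by that measure.

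Matrix genes were split between glycoproteins and collagens. Bgn, encoding the small proteoglycan biglycan, stood at 73.2, 47.6, 49.8 and 94.4 FPKM in the sham and 189, 302, 322 and 132 FPKM in the banded libraries and rose 3.56-fold as deposited and 2.65-fold rescaled (log2 change 1.79 (SE 0.27), limma adjusted p = 0.00116, rescaled 1.38, adjusted p = 0.00838). Postn, encoding periostin, stood at 7.58, 2.79, 7.19 and 6.15 FPKM in the sham and 22.2, 51.7, 35.4 and 9.65 FPKM in the banded libraries and rose 5.02-fold as deposited and 3.69-fold rescaled (log2 change 1.99 (SE 0.38), limma adjusted p = 0.00358, rescaled 1.62, adjusted p = 0.0185), with PS_9564 only just above the sham range. Mgp, which encodes a calcium-binding protein that inhibits calcification, rose from 268 ± 71.2 to 1009 ± 357 FPKM (log2 change 1.87, rescaled 1.46), and Sparc, a collagen-binding glycoprotein, from 101 ± 18.7 to 255 ± 72.6 FPKM (log2 change 1.29, rescaled 0.88). Of 46 tested matricellular and glycoprotein genes, 8 rose and 0 fell (median 0.69 as deposited and 0.34 rescaled), and the heparan sulfate proteoglycan Hspg2 was lower after rescaling only (log2 -0.65). The rescaled median deviation of the list was 0.10, 0.56, 0.52 and 0.10 in the banded and 0.08, -0.12, -0.01 and 0.04 in the sham libraries. As in the hypertrophy list, PS_9553 and PS_9561 carried most of the shift.

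Collagen genes gave no rise. Col1a1 stood at 51.5, 51.7, 43.5 and 46.0 FPKM in the sham and 45.8, 64.3, 76.9 and 51.3 FPKM in the banded libraries (log2 change 0.28, rescaled -0.12) and Col3a1 at 56.8, 42.0, 47.5 and 49.6 FPKM in the sham and 45.9, 86.8, 76.6 and 42.6 FPKM in the banded libraries (log2 change 0.30, rescaled -0.10). Both overlapped between groups, and their sign turned with the scale. Col5a3, a chain of the fibril-initiating type V collagen, fell from 9.84 ± 2.08 to 5.16 ± 0.543 FPKM (log2 change -0.80 (SE 0.21), limma adjusted p = 0.0193, rescaled -1.15, adjusted p = 0.0174). Of 19 collagen genes tested, 0 rose and 1 fell, with a median of 0.30 as deposited and -0.04 rescaled. These transcripts are long (median 6119 nt), and the median was 0.16 after the length and GC correction.

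Enzymes and signals that act on matrix gave a few calls each, set against 2.44% risen and 0.298% fallen over all genes. P4hb, the protein disulfide isomerase that is also a subunit of collagen prolyl hydroxylase, was the one gene called of 21 in the crosslinking list (33.0, 27.6, 32.0 and 47.4 FPKM in the sham and 91.4, 89.3, 104 and 56.1 FPKM in the banded libraries, log2 change 1.25, rescaled 0.85). Serpine2, an inhibitor of serine proteases, rose from 8.59 ± 2.64 to 27.3 ± 7.26 FPKM and Timp3, a matrix-bound inhibitor of metalloproteinases, from 17.0 ± 4.70 to 52.8 ± 20.3 FPKM. They were among 3 rises of 21 proteases and inhibitors, and Adam19 was lower after rescaling only (log2 -1.05). Timp1, another inhibitor, stood at 2.31, 3.16, 2.23 and 2.89 FPKM in the sham and 6.06, 12.4, 17.8 and 4.04 FPKM in the banded libraries and passed as deposited only (limma adjusted p = 0.0474 and 0.208 rescaled). Among 30 genes of TGF-beta and BMP signalling, 4 rose, the ligands Tgfb2 (4.18, 2.61, 3.03 and 3.53 against 7.01, 13.2, 11.4 and 7.59 FPKM) and Tgfb3 (5.35, 5.54, 3.54 and 5.41 against 11.5, 15.02, 14.8 and 7.72 FPKM), the co-receptor Eng and the secreted Fstl1. Serpina3n, a protease inhibitor of the acute phase, had 6.42, 4.34, 6.43 and 9.69 FPKM in the sham and 39.9, 35.1, 44.5 and 17.4 FPKM in the banded libraries and rose 5.09-fold as deposited and 3.75-fold rescaled (log2 change 2.15 (SE 0.30), limma adjusted p = 0.000995, rescaled 1.77, adjusted p = 0.00615). Apod, a lipid-binding secreted protein, stood at 5.63, 0.605, 3.83 and 5.61 FPKM in the sham and 18.5, 28.8, 36.4 and 12.3 FPKM in the banded libraries and rose 6.12-fold as deposited and 4.60-fold rescaled.

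Ion channel genes leaned the other way. Scn4b, the beta-4 subunit that modulates the cardiac sodium channel, stood at 25.9, 32.0, 21.7 and 29.9 FPKM in the sham and 21.1, 11.6, 8.97 and 11.6 FPKM in the banded libraries. All banded values lay below all sham values, with PS_9552 nearest to them, and Scn4b fell 2.06-fold as deposited and 2.75-fold rescaled (log2 change -1.04 (SE 0.23), limma adjusted p = 0.00750, rescaled -1.42, adjusted p = 0.00732). Scn4a, a sodium channel pore known from skeletal muscle, stood at 8.83, 9.18, 7.09 and 8.72 FPKM in the sham and 5.72, 3.33, 4.10 and 3.88 FPKM in the banded libraries and fell 1.99-fold as deposited and 2.64-fold rescaled (log2 change -0.86 (SE 0.20), limma adjusted p = 0.0110, rescaled -1.20, adjusted p = 0.00740). Kcnj3, a subunit of the acetylcholine-gated potassium channel found mainly in atria, fell from 10.3 ± 2.42 to 5.91 ± 0.952 FPKM (log2 change -0.70, rescaled -1.05). It is also 1 of 7 tested atrial markers, and the others differed widely between libraries, as given further on. Of 26 tested potassium and sodium channel and pump genes, 0 rose and 3 fell. The median was 0.02 as deposited and -0.35 rescaled, and 22 of the 26 changes were negative after rescaling, against 5945 of 12100 over all genes. The list's transcripts are longer than most (median 3759 nt), and its median was -0.17 after the length and GC correction and -0.11 in PS_9564 alone. Kcnip2, a subunit of the transient outward current, had 123, 137, 113 and 100.1 FPKM in the sham and 137, 96.6, 127 and 120.1 FPKM in the banded libraries and did not pass (log2 change 0.02, rescaled -0.39).

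Other genes that fell were of mixed kinds. Grip2, a scaffold protein with PDZ domains, had 8.46, 7.92, 8.45 and 5.36 FPKM in the sham and 2.67, 3.37, 2.66 and 2.29 FPKM in the banded libraries and fell 2.75-fold as deposited and 3.67-fold rescaled (log2 change -1.18 (SE 0.21), limma adjusted p = 0.00262, rescaled -1.499, adjusted p = 0.00615). Mylk4, a myosin light chain kinase family member, stood at 45.4, 42.5, 31.3 and 37.4 FPKM in the sham and 28.8, 16.7, 12.9 and 19.7 FPKM in the banded libraries (log2 change -1.01, rescaled -1.40) and Slc25a42, a mitochondrial carrier of coenzyme A, at 68.4, 71.8, 62.6 and 46.9 FPKM in the sham and 40.1, 23.1, 26.0 and 35.9 FPKM in the banded libraries (log2 change -0.99, rescaled -1.39). All 3 fell and stayed called without any single library, as did Gpam, the first enzyme of glycerolipid synthesis (58.6, 53.5, 46.3 and 47.0 against 25.9, 28.3, 31.9 and 24.9 FPKM). Gnb3, a G protein beta subunit, fell from 14.3 ± 4.01 to 5.59 ± 0.821 FPKM, Rtn4r, the Nogo receptor, from 8.65 ± 1.16 to 3.66 ± 0.921 FPKM, Prnd, a relative of the prion protein, from 6.84 ± 1.94 to 2.33 ± 2.08 FPKM and Lgals4, a galectin, from 30.9 ± 6.76 to 12.2 ± 4.96 FPKM (n = 4 per group). Gpam was named after its values were seen.

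Among genes of fuel use, Pdk4 and the coactivator Ppargc1b fell. Pdk4, the kinase that turns off pyruvate dehydrogenase and so spares glucose, stood at 209, 136, 140.2 and 122 FPKM in the sham and 42.0, 113, 67.6 and 42.3 FPKM in the banded libraries. The groups did not overlap, PS_9553 lying closest to the sham range, and Pdk4 fell 2.29-fold as deposited and 3.06-fold rescaled (log2 change -1.27 (SE 0.33), limma adjusted p = 0.0164, rescaled -1.68, adjusted p = 0.0135). Ppargc1b, a coactivator of mitochondrial genes, fell from 18.0 ± 3.51 to 9.41 ± 2.04 FPKM (log2 change -0.87 (SE 0.26), limma adjusted p = 0.0332, rescaled -1.24, adjusted p = 0.0137), while its relative Ppargc1a stood at 15.8, 10.2, 10.2 and 9.55 FPKM in the sham and 11.9, 13.1, 14.9 and 9.63 FPKM in the banded libraries and did not pass (log2 change 0.12, rescaled -0.25). The nuclear receptor Esrra did not pass either (48.7, 50.9, 50.04 and 62.7 FPKM in the sham and 72.8, 57.4, 53.7 and 65.5 FPKM in the banded libraries, log2 change 0.22, rescaled -0.18). With Pdk4 and Ppargc1b, 2 of 23 energy regulators fell and 0 rose.

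Among 40 tested genes of fatty acid uptake, storage and oxidation, only Ucp2, a mitochondrial carrier of the uncoupling protein family, rose (11.9, 8.06, 9.62 and 11.4 FPKM in the sham and 32.2, 33.4, 38.5 and 20.8 FPKM in the banded libraries, log2 change 1.498 (SE 0.23), limma adjusted p = 0.00133, rescaled 1.11, adjusted p = 0.00780), and none fell on both scales. The share of all 12100 genes that rose was 2.44%, near that of this list. The list's median was 0.14 as deposited and -0.25 rescaled, and 6 members were lower after rescaling only, Slc27a1, Cpt1b, Acadm, Etfdh, Acot2 and Ucp3. Cpt1b, the muscle carnitine palmitoyltransferase that admits fatty acids to mitochondria, stood at 356, 312, 302 and 288 FPKM in the sham and 338, 250.02, 283 and 269 FPKM in the banded libraries (log2 change -0.15 as deposited, limma adjusted p = 0.585, and -0.55 rescaled, adjusted p = 0.0252). Ucp3 stood at 11.8, 13.2, 17.0 and 13.1 FPKM in the sham and 12.2, 10.9, 8.70 and 9.16 FPKM in the banded libraries (log2 change -0.39, rescaled -0.77). Ckmt2, the mitochondrial creatine kinase, had 1266, 1143, 1226 and 1235 FPKM in the sham and 1877, 1296, 1286 and 1236 FPKM in the banded libraries, where PS_9552 alone stood apart, and did not pass (log2 change 0.21, rescaled -0.20). Of 34 genes of the TCA cycle and of ketone and branched-chain catabolism, 0 rose or fell on both scales and Mccc2 was lower after rescaling. At an unadjusted limma p under 0.05 on both scales, 1 of these was higher and 0 were lower, against 1286 and 127 of all 12100 genes.

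Some genes of glycolysis rose. Gpi1, glucose-6-phosphate isomerase, stood at 82.4, 89.2, 81.7 and 114 FPKM in the sham and 209.5, 163, 239 and 163 FPKM in the banded libraries (log2 change 1.06, rescaled 0.66) and Pgam2, the muscle phosphoglycerate mutase, at 300.1, 323, 304 and 522 FPKM in the sham and 934, 757, 809 and 677 FPKM in the banded libraries (log2 change 1.16, rescaled 0.75), both without overlap. With Pfkp, Aldoa and Ldha, 5 of 33 genes rose and 0 fell (median 0.66 as deposited and 0.30 rescaled). Slc2a1, the basal glucose transporter, stood at 7.85, 7.45, 5.38 and 5.29 FPKM in the sham and 11.6, 12.5, 16.4 and 15.1 FPKM in the banded libraries without overlap but passed as deposited only (limma adjusted p = 0.00768 and 0.155 rescaled). Fbp2, the muscle fructose bisphosphatase, had 11.2, 10.9, 8.35 and 12.1 FPKM in the sham and 11.5, 9.78, 7.35 and 12.04 FPKM in the banded libraries (log2 change -0.07, rescaled -0.44).

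Some genes of the respiratory chain rose. Ndufb7, an accessory subunit of complex I, stood at 259, 221, 256 and 523 FPKM in the sham and 1009, 952, 805 and 811 FPKM in the banded libraries and rose 2.84-fold as deposited and 2.15-fold rescaled (log2 change 1.59 (SE 0.24), limma adjusted p = 0.00120, rescaled 1.18, adjusted p = 0.0135). Sham 4 stood apart from the other sham libraries and was still under every banded value. Ndufv2, an iron-sulfur subunit of complex I, rose from 191 ± 60.6 to 484 ± 108 FPKM (log2 change 1.36, rescaled 0.96), and Atp5h and Atp5c1, subunits of ATP synthase, from 239 ± 78.1 to 569 ± 101 FPKM and 287 ± 79.7 to 630.3 ± 119 FPKM (n = 4 per group). Of 37 tested complex I genes 6 rose and 0 fell (median 0.82 as deposited and 0.47 rescaled). For complexes II to IV and ATP synthase, 3 of 43 rose and 0 fell (median 0.87 as deposited and 0.47 rescaled). Complex I medians by library were 0.55, 0.50, 0.19 and 0.67 in the banded and -0.31, -0.16, 0.06 and 0.38 in the sham libraries, so sham 4 lay above PS_9561 and the groups overlapped.

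Transcript length moved with these results. Outside the ribosome, respiratory chain and proteasome lists, the rescaled median change fell from 0.23 for genes under 500 nt to 0.18 at 500 to 1200 nt, 0.06 at 1200 to 2500 nt, -0.03 at 2500 to 5000 nt and -0.14 above that. The median length was 782 nt for complex I, 730 nt for the other complexes and 2615 nt for all genes used. After correction of each library for length and GC content, the list medians were 0.25 and 0.12, and 209 of all 295 rises and 33 of all 36 falls were still called. Ndufb7 kept its call (log2 0.96, limma adjusted p = 0.0158), while Atp5h and Atp5c1 did not (adjusted p = 0.142 and 0.0618). Of the 72 called genes that the naming rule picked, 11 lost the call, the others being Myl2, Rps20, Mrpl51, Vdac2, Mt2, Cd74, Cidea, Itgb1 and Mfap5 (limma adjusted p from 0.0547 to 0.142 over the 11). In PS_9564, the left banded library with an Rn45s value, the medians were 0.67 and 0.63. What part the length trend has in the rise was not tested beyond these values.

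**Figure D3:**
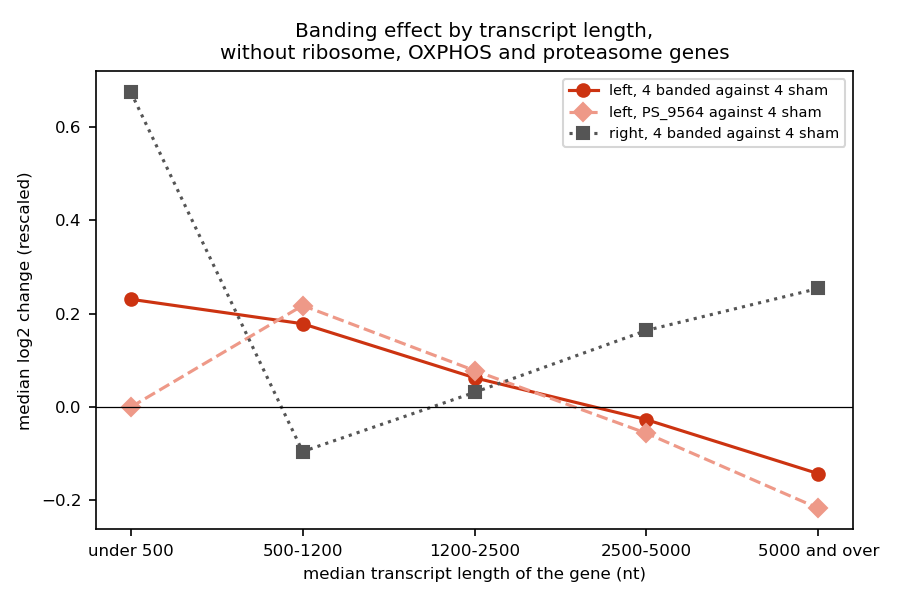
Median log2 change, banded minus sham on rescaled values (y axis), of genes in 5 classes of transcript length (x axis, nt), leaving out ribosome, respiratory chain and proteasome genes. The left ventricle runs from 0.23 in the shortest to -0.14 in the longest class, PS_9564 alone against the 4 sham libraries from 0 over 0.22 to -0.22, and the right ventricle from 0.67 over -0.10 to 0.25.

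Genes of the cytosolic ribosome gave the most calls of any list. Rps14 stood at 85.7, 73.3, 90.8 and 120.4 FPKM in the sham and 294, 335, 319 and 264 FPKM in the banded libraries and rose 3.27-fold as deposited and 2.47-fold rescaled (log2 change 1.72 (SE 0.21), limma adjusted p = 0.000701, rescaled 1.31, adjusted p = 0.00828). Its groups did not overlap, and it stayed called without any single library. Rpl14, Rpl23 and Rps20 rose from 15.8 ± 5.99 to 58.6 ± 15.1 FPKM, 11.8 ± 7.06 to 40.5 ± 8.19 FPKM and 88.8 ± 40.2 to 329 ± 96.5 FPKM (n = 4 per group). Of 60 tested ribosomal protein genes 20 rose and 0 fell, with a median of 1.22 as deposited and 0.85 rescaled, and 57 of 60 rescaled changes were positive, against 6155 of 12100 over all genes. Each banded library lay above each sham library in the list's median (0.78, 1.04, 0.73 and 0.87 against -0.26, -0.16, -0.01 and 0.42), sham 4 being the nearest. The list's transcripts are short (median 772.5 nt), and its median after the length and GC correction was 0.60. These genes have near-identical processed copies in the genome, so their FPKM are uncertain where the authors' counting could split reads. Mitochondrial ribosome genes rose in 1 of 75 cases, Mrpl51 (42.8, 31.5, 32.9 and 56.0 against 100.4, 79.2, 75.0 and 63.9 FPKM). That share is below the 2.44% of all genes that rose.

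Proteasome genes followed. Psmc1, an ATPase of the proteasome's regulatory cap, stood at 23.1, 16.3, 19.2 and 30.3 FPKM in the sham and 61.8, 68.4, 70.6 and 42.7 FPKM in the banded libraries and rose 2.74-fold as deposited and 2.05-fold rescaled (log2 change 1.42 (SE 0.21), limma adjusted p = 0.00116, rescaled 1.03, adjusted p = 0.00615), and Psmd4, a ubiquitin receptor of the same cap, rose from 45.5 ± 9.20 to 103 ± 9.21 FPKM (log2 change 1.18, rescaled 0.78). Of 36 tested proteasome genes 8 rose and 0 fell (median 0.94 as deposited and 0.54 rescaled), and after rescaling all 36 changes were positive. Each banded library's median (0.58, 0.54, 0.44 and 0.45) exceeded each sham library's (-0.02, -0.20, 0.00 and 0.23). Among ubiquitin ligases, autophagy and lysosome genes, 4 of 28 rose, the sarcomeric ligase Trim54 (90.7, 85.3, 94.2 and 122 FPKM in the sham and 219.6, 203, 207 and 176 FPKM in the banded libraries), the autophagy receptor Sqstm1 (167, 173, 131 and 158 FPKM in the sham and 309.97, 277, 359 and 265 FPKM in the banded libraries), Bnip3 and Lamp1.

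Chaperones and antioxidant enzymes gave a few calls, against 2.44% risen over all tested genes. Calr, the calcium-binding chaperone calreticulin of the endoplasmic reticulum, stood at 48.3, 41.3, 42.3 and 71.4 FPKM in the sham and 140.5, 148, 159 and 81.3 FPKM in the banded libraries and rose 2.60-fold as deposited and 1.93-fold rescaled (log2 change 1.35 (SE 0.23), limma adjusted p = 0.00241, rescaled 0.95, adjusted p = 0.0111), and Hsp90b1, its neighbour in that compartment, rose from 32.1 ± 9.34 to 73.7 ± 20.9 FPKM. They were 2 of 29 genes tested there. Of 24 cytosolic chaperones 3 rose, the muscle small heat shock protein Hspb7 (838 ± 127 to 1709 ± 157 FPKM), Hsp90ab1 (242 ± 41.0 to 491 ± 103 FPKM) and Hspa4. Antioxidant enzymes gave 2 rises of 31. Gpx3, the secreted glutathione peroxidase, stood at 96.9, 72.7, 80.1 and 123 FPKM in the sham and 302, 360.4, 411 and 220.3 FPKM in the banded libraries and rose 3.48-fold as deposited and 2.59-fold rescaled (log2 change 1.78 (SE 0.20), limma adjusted p = 0.000701, rescaled 1.37, adjusted p = 0.00341). The metallothionein Mt2 rose from 84.2 ± 14.6 to 252 ± 16.5 FPKM, but its call was lost in each of the 8 fits that left out a library.

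The imprinted neighbours H19 and Igf2, known to share enhancers, both rose. H19, a long noncoding RNA abundant before birth, stood at 2.78, 2.41, 4.03 and 6.37 FPKM in the sham and 45.1, 20.3, 17.9 and 17.8 FPKM in the banded libraries and rose 6.48-fold as deposited and 4.81-fold rescaled (log2 change 2.38 (SE 0.32), limma adjusted p = 0.000861, rescaled 2.01, adjusted p = 0.00838). Igf2, a fetal growth factor, stood at 5.22, 7.63, 5.09 and 7.83 FPKM in the sham and 28.8, 15.6, 16.8 and 12.4 FPKM in the banded libraries and rose 2.85-fold as deposited and 2.10-fold rescaled (log2 change 1.34 (SE 0.23), limma adjusted p = 0.00241, rescaled 0.96, adjusted p = 0.0203). PS_9552 was the highest library for both genes, and neither overlapped. With Igfbp5, an IGF-binding protein, they made 3 rises among 22 genes of the IGF axis and Wnt modulators.

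Markers of other cell types moved with the groups in part. In bulk tissue, more cells of a type and more RNA per cell cannot be told apart. Blood showed the widest gap. Hba-a2, the alpha globin, stood at 116, 67.8, 106 and 116 FPKM in the sham and 452, 355, 299.7 and 262 FPKM in the banded libraries and rose 3.37-fold as deposited and 2.53-fold rescaled (log2 change 1.75 (SE 0.25), limma adjusted p = 0.00109, rescaled 1.34, adjusted p = 0.0135). The beta globin Hbb-b1 stood at 82.5, 62.0, 79.8 and 131 FPKM in the sham and 695, 619.7, 384 and 229 FPKM in the banded libraries, Hbb-bt at 3.13, 0, 3.82 and 7.23 FPKM in the sham and 35.7, 30.2, 25.0 and 11.3 FPKM in the banded libraries and Alas2, the heme enzyme of red cell precursors, at 2.68, 1.33, 2.502 and 2.202 FPKM in the sham and 14.8, 11.2, 7.92 and 3.14 FPKM in the banded libraries. These 3 did not pass after rescaling (limma adjusted p = 0.114, 0.0724 and 0.0833). The 4 tested red blood cell markers had library medians of 2.19, 1.98, 1.36 and 1.27 in the banded and 0.13, -0.42, 0.19 and 0.39 in the sham libraries. All 8 red blood cell markers with values, tested or not, summed to 132 to 257 FPKM in the sham and 506 to 1199 FPKM in the banded libraries. The part of blood content in the other rises was not tested.

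Macrophage, fibroblast and endothelial markers were higher in places. The macrophage genes Lyz2 and C1qb rose (55.2, 31.3, 49.95 and 54.9 against 112, 146, 153 and 73.6 FPKM, and 23.2, 14.0, 19.04 and 32.4 against 54.1, 58.0, 71.3 and 45.2 FPKM), 2 of 14 markers tested, and the list summed to 132 to 192 FPKM in the sham and 259 to 426 FPKM in the banded libraries as deposited. Of 10 fibroblast markers 2 rose, Pi16 (14.5 ± 3.92 to 42.0 ± 12.4 FPKM) and Mfap5 (14.7, 6.01, 7.12 and 14.2 FPKM in the sham and 31.7, 49.8, 39.5 and 14.0 FPKM in the banded libraries), with PS_9564 inside the sham range of Mfap5. The list summed to 157 to 221 FPKM in the sham and 230.2 to 396 FPKM in the banded libraries as deposited, but its rescaled library medians overlapped (0.16, -0.38, 0.04 and 0.09 in the sham and 0.19, 0.52, 0.20 and 0.07 in the banded libraries), and 6 of 10 rescaled changes were positive. Of 8 tested markers of activated fibroblasts Postn alone rose (sums over 9 markers, tested or not, 12.4 to 24.7 FPKM in the sham and 26.1 to 96.6 FPKM in the banded libraries as deposited), and rescaled medians overlapped there too (0.17, -0.18, 0.08 and 0.01 against 0.14, 0.76, 0.48 and 0.06). The endothelial genes Vwf (7.03, 5.12, 3.33 and 8.75 FPKM in the sham and 22.8, 15.4, 46.3 and 13.9 FPKM in the banded libraries) and Eng (49.1, 56.9, 49.9 and 58.1 FPKM in the sham and 119.6, 81.9, 125 and 85.9 FPKM in the banded libraries) rose, 2 of 13, while Robo4 was lower after rescaling. Among 33 genes of the interferon response and antigen presentation 3 rose, the class I light chain B2m (134, 93.3, 125 and 155 FPKM in the sham and 398, 574, 676 and 239 FPKM in the banded libraries), the class II chaperone Cd74 (32.9, 28.8, 18.0 and 47.0 FPKM in the sham and 68.8, 62.9, 109 and 62.5 FPKM in the banded libraries) and Irf7. Lymphocyte and neutrophil markers stayed low, summing to 1.88 to 3.62 FPKM in the sham and 3.85 to 5.44 FPKM in the banded libraries and to 0 to 4.01 FPKM in the sham and 6.69 to 22.5 FPKM in the banded libraries. Among these the neutrophil gene S100a9 stood at 0, 0, 1.49 and 0.377 FPKM in the sham and 15.8, 7.68, 6.58 and 1.38 FPKM in the banded libraries and did not pass after rescaling (limma adjusted p = 0.0716).

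Transcripts of the atria and pancreatic islet varied within the groups. Myl7, the atrial myosin light chain, stood at 124, 13.1, 83.5 and 27.8 FPKM in the sham and 0, 122, 0.935 and 0.521 FPKM in the banded libraries, and Sln, the atrial regulator of the calcium pump, at 85.1, 6.65, 38.5 and 14.4 FPKM in the sham and 0.775, 33.4, 0.581 and 1.06 FPKM in the banded libraries. In the banded group only PS_9553 was near the sham libraries for either gene, and neither passed (log2 change -3.39, rescaled -3.65 and log2 change -2.74, rescaled -3.03). Ins2, an insulin gene, stood at 1620.2, 292, 99.0 and 74.1 FPKM in the sham and 21.8, 18.4, 32.1 and 47.0 FPKM in the banded libraries and fell (log2 change -3.08 (SE 0.69), limma adjusted p = 0.00791, rescaled -3.47, adjusted p = 0.0185), sham 1 lying far above the other sham libraries. The 8 islet markers with values, of which 6 were tested, summed to 87.9 to 2094 FPKM in the sham and 25.2 to 60.0 FPKM in the banded libraries. The islet gene Gcg, glucagon, was at 16.9, 5.08, 2.94 and 0.976 FPKM in the sham and 0.607, 0.771, 0 and 0.486 FPKM in the banded libraries and did not pass (log2 change -1.91, rescaled -2.09). Skeletal muscle myosins Myh1, Myh2 and Myh4 were under the testing level, and of 2 adipocyte markers tested Cidea rose (8.13, 7.76, 11.1 and 14.3 against 32.2, 26.9, 26.9 and 18.99 FPKM) while Adipoq, the defining adipokine, was under the testing level. Krt19, a keratin of the mesothelium, rose from 0.449 ± 0.571 to 4.83 ± 2.42 FPKM, whereas the mesothelial genes Upk3b and Msln stayed at 3.06, 0.345, 0.189 and 0.635 FPKM in the sham and 0, 0.117, 0 and 0 FPKM in the banded libraries and 2.28, 0, 0.386 and 0.103 FPKM in the sham and 0, 0.0453, 0 and 0.123 FPKM in the banded libraries. Cidea and Krt19 each kept their call in only 1 of the 8 fits that left out a library.

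Several programmes gave few or no calls, against 2.44% risen and 0.298% fallen over all tested genes. Of 30 genes of adrenergic, angiotensin and endothelin signalling none rose or fell, and the alpha-1A adrenergic receptor Adra1a was lower after rescaling (log2 -0.81). Unadjusted, at a limma p under 0.05 on both scales, 3 were higher and 0 lower. For this and the unadjusted counts that follow, the background is 1286 higher and 127 lower of all 12100 genes. Of 33 genes of calcineurin, CaMKII and MAP kinase signalling Rcan2, a calcineurin regulator, rose (61.3, 51.4, 61.3 and 94.5 FPKM in the sham and 163, 145, 151 and 100.3 FPKM in the banded libraries). None of 19 genes of the VEGF and angiopoietin axis rose or fell, with Vegfa lower after rescaling (log2 -1.04), and none of 21 cell cycle or 19 clock genes did. Their unadjusted counts higher and lower were 2 and 1, 0 and 0 and 4 and 1. Intercalated disc and cytoskeletal genes gave 2 rises of 34, Itgb1 (41.6, 27.02, 36.0 and 49.0 FPKM in the sham and 95.7, 97.3, 80.7 and 47.0 FPKM in the banded libraries, PS_9564 lying under sham 4) and Vim (66.0 ± 8.55 to 161 ± 53.9 FPKM). The 24 immediate early genes, which respond within minutes to stimuli, gave 0 calls (2 and 0 unadjusted), with library medians of -0.33, 1.61, 0.15 and 0.29 in the banded and -0.35, -0.28, 0.16 and 0.32 in the sham libraries, so PS_9553 stood apart from all others. Creatine and adenylate kinases gave 1 rise of 16, the mitochondrial channel Vdac2 (106, 70.0, 88.2 and 116 FPKM in the sham and 194, 202, 201 and 153 FPKM in the banded libraries), and glucocorticoid-responsive genes 1 rise and 1 fall of 14, Mt2 and Pdk4.

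**Figure D4:**
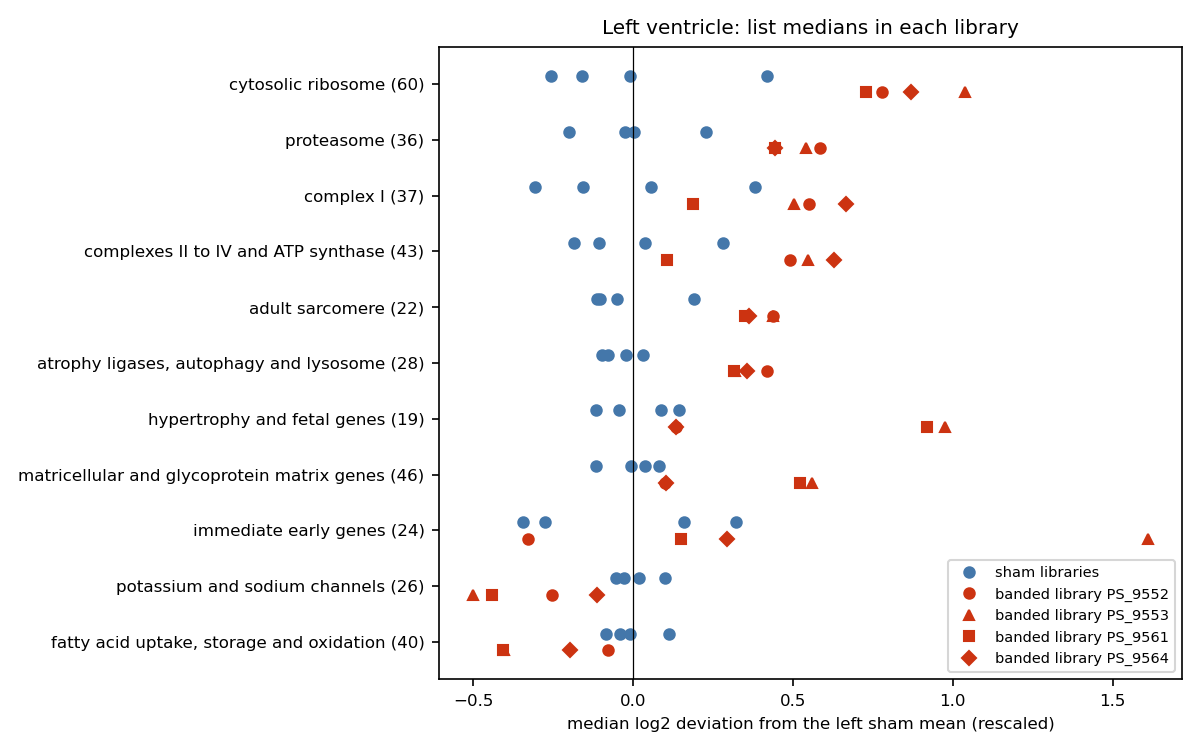
Median log2 deviation of gene lists from the left sham mean (x axis, rescaled) in each sham (blue) and banded (red, a symbol per library) left ventricular library, with the number of tested genes beside each list. In the cytosolic ribosome and proteasome all banded libraries lie above all sham libraries, whereas in the hypertrophy list PS_9552 and PS_9564 lie at 0.14 and 0.13, inside the sham range, and PS_9553 and PS_9561 at 0.97 and 0.92.

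The banding effect in the left ventricle was then set against that in the right. In the right ventricle 1275 genes rose (10.5%) and 596 fell (4.93%) by the same rule. Of the 295 left rises 87 also rose on the right, which is 29.5% of the left and 6.82% of the right rises, 13 fell there and 195 were not called. Of the 36 left falls 19 also fell on the right, 52.8% of the left and 3.19% of the right falls, and 0 rose. The difference of the effects (left minus right, limma, both scales) passed for 418 genes with the higher value on the left (3.45%) and 64 with the lower (0.529%), 3.98% in all, including 82 of the 295 left rises and 2 of the 36 falls. This balance depended on the scaling, with 426 higher and 261 lower when rescaled only, 266 and 255 with quantile normalization, 334 and 156 after the length and GC correction, and 28 and 726 with TPM scaling, where the difference of the median gene was -0.47, against 0.07 as deposited and -0.107 rescaled. TPM scaling divides each library by its whole FPKM sum. Of that sum Mir6236 took 21.3 to 59.7% in the right banded and 39.7 to 53.6% in the right sham libraries. With a replicate block 178 passed. Rn45s was at 0 in right banded PS_9561 and PS_9564 and in no right sham library. The right effect and the difference between ventricles therefore carry this property too. Right sham libraries were shallower (3.39e+05 to 1.20e+06 estimated fragments), and in the right ventricle the length trend ran otherwise, as plotted against length.

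Nppa, Nppb, Ankrd1, Thbs4 and Cilp had the smaller effect on the left. The difference of log2 effects was -2.43 for Nppa (limma adjusted p = 0.00404, 2.505 on the left and 4.94 on the right), -2.60 for Nppb (adjusted p = 0.0151) and -1.68 for Ankrd1. For the matricellular Thbs4 it was -2.73 (0.81 and 3.55) and for the cartilage matrix protein Cilp -1.99 (1.05 and 3.05). Cilp was near the floor in right sham libraries 1 to 4, at 0.932, 0, 0.621 and 0.348 FPKM. On the left Cilp did not pass (limma adjusted p = 0.0633, rescaled 0.186). Postn passed when rescaled only (-1.59, limma adjusted p = 0.0996, rescaled -1.79, adjusted p = 0.0383), and Myh7 on neither scale (0.42, adjusted p = 0.655, rescaled 0.21, adjusted p = 0.748). Gnb3 (-1.94) and the inositol phosphate kinase Ip6k3 (-2.13) were lower on the left as well. With the replicate block Nppb, Ankrd1 and Gnb3 did not pass, while Nppa, Thbs4, Cilp and Ip6k3 did. Of the collagens 4 of 19 passed with the lower effect on the left, where the list's rescaled median was -0.04, against 0.77 on the right. The collagen count was 9 with TPM scaling, 8 with quantile normalization and 0 with the replicate block.

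Genes of the respiratory chain, the ribosome and the sarcomere were frequent among those with the higher effect on the left. For complex I 23 of 37 genes passed (median 0.47 on the left and -0.90 on the right), for complexes II to IV and ATP synthase 26 of 43 (0.47 and -0.99), for the cytosolic ribosome 25 of 60, for fatty acid genes 12 of 40 and for the adult sarcomere 7 of 22. In the same order these counts were 3, 2, 4, 2 and 1 with TPM scaling, 11, 7, 19, 7 and 1 with quantile normalization, 17, 22, 20, 11 and 7 after the length and GC correction, and 9, 8, 14, 4 and 3 with the replicate block. Sarcomere genes had a median left minus right difference of 0.70 in deposited values, against 0.01 under TPM scaling and -0.19 under quantile normalization. The 13 genes that rose on the left and fell on the right were Hba-a2, Rps14, Psenen, Vamp8, Uqcc2, Ndufb9, Rps10, Ndufs6, Myl2, Fis1, Tnni3, Ndufs4 and Ndufb10. Myl2 had log2 effects of 1.28 and -0.87, and Ndufs6, a zinc-binding subunit of complex I, 1.37 and -1.06. H19 differed by 2.62 (2.38 and -0.24) and Igf2 by 1.82. Their sham means were lower on the left than on the right (3.90 and 15.9 FPKM for H19, 6.44 and 14.6 FPKM for Igf2). The genes that rose on the left and fell on the right also had the lower sham mean on the left, such as Hba-a2 (101 and 249 FPKM). Several of the largest differences were carried by the right side. Fbp2 had -0.07 on the left and -2.76 on the right, Penk, the enkephalin precursor, 0.38 and -2.31, and Dhrs7c, a reductase of the sarcoplasmic reticulum, 0.91 and -1.79. Cdo1, the cysteine dioxygenase, had 1.37 and -1.37, and the chemokine Ccl6 1.78 and -0.90.

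**Figure D5:**
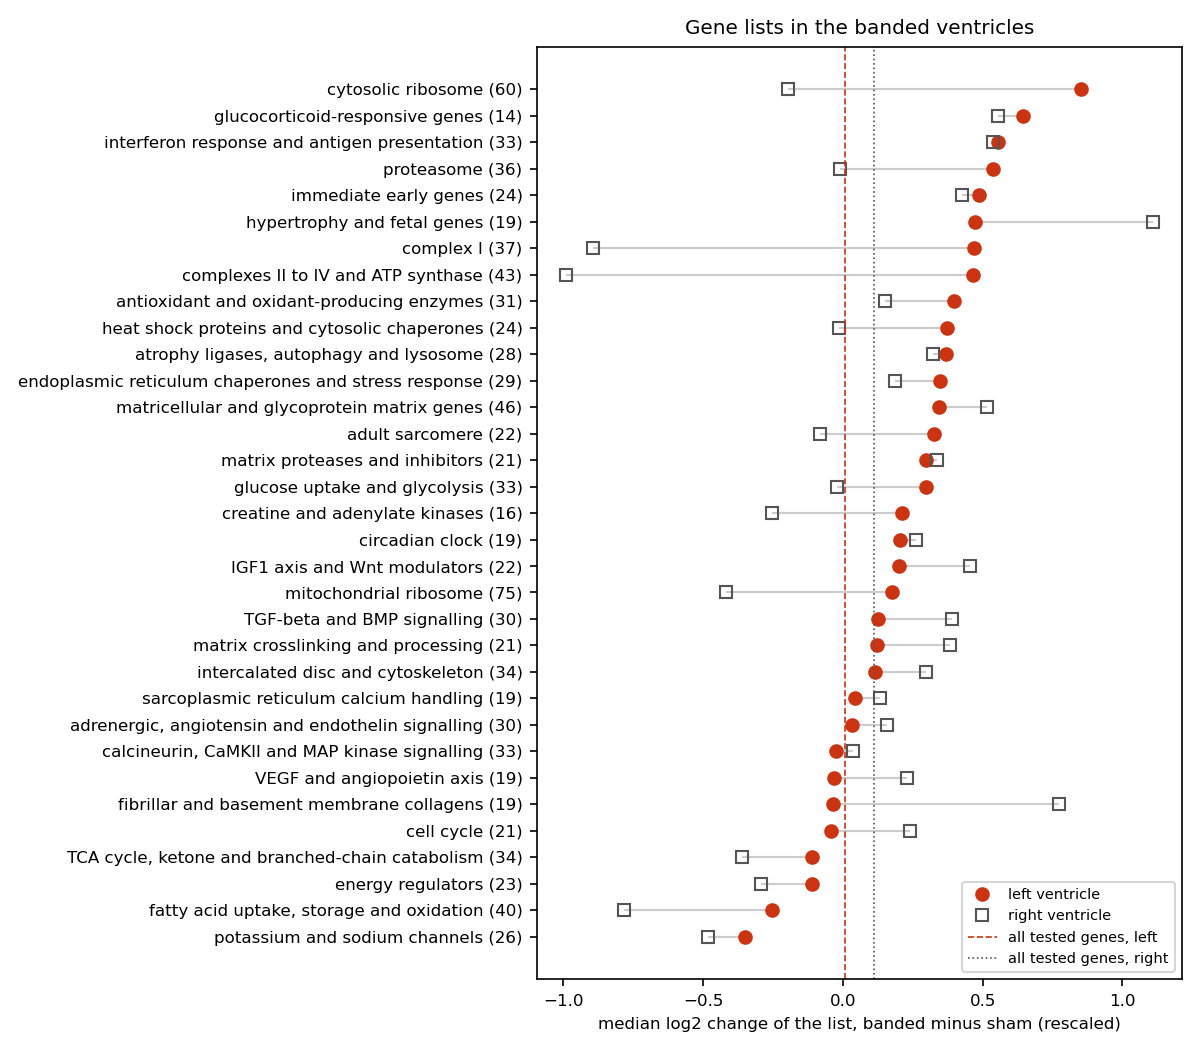
Median log2 change (x axis, banded minus sham, rescaled) of 33 gene lists in the left (filled red circles) and right (open squares) ventricle, with the number of tested genes beside each list and dashed and dotted lines at the medians of all tested genes (0.01 left, 0.11 right). The cytosolic ribosome lies at 0.85 on the left and -0.20 on the right, complex I at 0.47 and -0.90, and the collagens at -0.04 and 0.77.

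The authors' deposited table of group values gives a further view of the same libraries, with no error. In the authors' deposited table Nppa stood at 166 and 782 FPKM in the sham and banded left ventricle, a ratio of 4.72, and Myh7 at 294 and 763 FPKM, a ratio of 2.60. Scn4b stood at 42.5 and 16.4 FPKM in the authors' deposited table, Pdk4 at 250.5 and 73.5 FPKM, Rps14 at 112 and 317 FPKM and Ndufb7 at 415 and 868 FPKM. The direction was the same as in the libraries for each of these 6 genes. Myh6 was listed at 2974 and 0 FPKM in the authors' deposited table, while its banded libraries held 2522 to 3828 FPKM. An exact 0 can be a failed estimate, so no direction was read from it. The direction did differ for other genes. In the authors' deposited table Ckmt2 and Ppargc1a had ratios of 0.891 and 0.694, against higher banded values in the libraries as deposited.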

How the data were processed

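PolyA RNA was sequenced in 8 libraries of left ventricular free wall, 4 sham and 4 banded, and in 8 right ventricular libraries. Per the submitters' processing notes, the tools were FastQC 0.11.5, STAR 2.5.3a, Cufflinks 2.2.1, Cuffdiff and R 3.3.1, with the mouse build mm9. The authors deposited FPKM per gene and library, which are normalized and are not counts, and a table of group FPKM whose combination is not given in the sources used here. An exact 0 in such files can be a failed estimate.

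Tested genes reached 1 FPKM in 4 or more of the 16 libraries and were analysed as log2(FPKM + 1), so fold changes of low genes are understated on the log2 scale and fold values in the text are ratios of mean FPKM. For rescaled values, each library was divided by its median ratio, over 8211 genes, to the geometric mean of all libraries. A limma 3.58.1 fit (R 4.3.3, trended prior) of 4 group means over all 16 libraries gave each contrast, with Benjamini-Hochberg adjustment over 12100 genes and a threshold of 0.05. Depth, which FPKM do not give, was estimated from the smallest products of FPKM and transcript length among 9881 genes, assuming fragments of 200 nt. By that estimate 1 FPKM stands for 5.46 to 23.8 fragments of a median-length transcript in the left ventricle. On the right it stands for 0.886 to 3.14 fragments in the sham and 2.38 to 13.7 in the banded libraries. Lengths and GC content were matched by symbol from GENCODE gene models on GRCm38 for 12012 genes. The fit was tested on simulated data with known changes.

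Named genes were the 10 largest rises and falls on both scales whose groups did not overlap and of which one averaged 5 FPKM or more, 20 genes listed in the plan, up to 2 per direction of each list, and the 5 largest differences of each sign between ventricles. Small RNA, pseudogenes, predicted genes and entries that join symbols were not named, and some genes that the rule or the lists hold are not reported here. The genes and lists were chosen with earlier results of these data known. Lists were written from general knowledge and are described by counts and medians only. Alternatives were the scaling, pseudocount, filter, prior, library weights, the length and GC correction, a left-only fit, a replicate block and omission of libraries. TPM scaling divided each library by its whole FPKM sum, with Mir6236 and Rn45s included.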

Additional observations from a re-analysis of the deposited data

Results flagged for a closer look

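Of 188 groups of 4 left ventricular libraries, 2 for each of 94 named genes, 16 held a library whose gap to the nearest of the others was above Dixon's critical share of the group's range for 4 values, where chance gives about 1 in 20. Sham 4 was the high library for Acta1 (343 FPKM), Des (515 FPKM), Esrra (62.7 FPKM), Ndufb7 (523 FPKM), Pgam2 (522 FPKM) and Sparc (129 FPKM). Sham 1 was high for Ankrd1 (1638 FPKM), Ctgf (51.7 FPKM), Ins2 (1620.2 FPKM) and Ppargc1a (15.8 FPKM), and sham 3 was low for Tgfb3 (3.54 FPKM). In the banded group PS_9552 was high for Atp2a2 (1766 FPKM), Ckmt2 (1877 FPKM) and H19 (45.1 FPKM), PS_9561 was high for Cd74 (109 FPKM) and PS_9564 was low for Vdac2 (153 FPKM).

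The test of the difference between ventricles (limma, both scales) passed for 33 named genes, with the log2 effect of banding higher on the left for 26 and lower for 7. The genes chosen for that difference come first. They were higher on the left for Cdo1 (2.74), Dhrs7c (2.70), Fbp2 (2.69), Penk (2.69) and Ccl6 (2.67), and lower for Thbs4 (-2.73), Nppb (-2.60), Nppa (-2.43), Ip6k3 (-2.13) and Cilp (-1.99). Gnb3 (-1.94) and Ankrd1 (-1.68) were also lower on the left. Sarcomere genes with the higher left effect were Myl2 (2.15), Tnni3 (2.18), Myoz2 (1.37) and Tnnc1 (1.36). Mitochondrial genes were Ndufb7 (2.29), Ndufv2 (1.45), Atp5h (1.57), Atp5c1 (1.35) and Ucp3 (1.71). Ribosomal protein genes were Rps14 (2.40), Rps20 (2.25) and Rpl14 (1.82). The others were H19 (2.62), Igf2 (1.82), Hba-a2 (2.57), Cidea (1.75), Pgam2 (1.56), Calr (1.24), Trim54 (1.19), Psmd4 (1.06) and Hspb7 (0.95).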

How the results depend on the processing

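The 331 calls of the left ventricle became 77 with TPM scaling, 1764 as deposited only, 531 in a fit to left libraries only, 1489 with library weights, 511 with quantile normalization (245 higher, 266 lower) and 45 to 572 when each left library was left out. Without sham 1, 2, 3 and 4 the counts were 92, 45, 95 and 572, and without PS_9552, PS_9553, PS_9561 and PS_9564 166, 54, 96 and 283. Among libraries with an Rn45s value, which keep 1 left banded library whose spread is assumed to be that of the other groups, 3 were called and 0 of them were among the 331. The length and GC correction gave 266 higher and 153 lower, and rescaled values alone 295 and 190. The counts with other pseudocounts, filters or prior stayed within 1.5 times. The 482 differences between ventricles became 754 with TPM scaling (28 higher and 726 lower on the left), 733 as deposited, 9 among libraries with an Rn45s value and 274 to 580 when each left library was left out, with 274 without PS_9552, 321 without PS_9564, 289 without sham 1 and 310 without sham 3. Quantile normalization gave 266 higher and 255 lower. The cause of these shifts was not tested.

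Right and left libraries carry the same numbers, and whether equal numbers mark a shared mouse was not settled. Correlations of deviations ran from -0.0964 to 0.16, over 0.1 in 1 of 8, and 1 of 8 libraries correlated best with its own number. With 4 libraries per group that differ in depth, such values cannot exclude a shared mouse. The main fits used the numbers as names only. The replicate block takes equal numbers as a shared mouse and was fitted in separate ways. For the left calls it entered as a correlation between libraries of equal number, and 328 passed. For the differences between ventricles each number had its own term, which leaves fewer degrees of freedom, and 178 passed.

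Among 2067 values of 94 named genes over these alternatives, 1589 kept direction and side of the threshold, 426 lost and 29 gained a call, and 23 turned sign, all in genes without a call in the left ventricle. When each library was left out, Atp2a2 ranged from -0.147 (without sham 2) to 0.0984 (without sham 4), with 0.011 without PS_9553 and 0.00306 without PS_9561, and over the other alternatives it went down to -0.622 with quantile normalization. Rescaled only, Ckmt2 was -0.203, Col1a1 -0.124, Col3a1 -0.103, Esrra -0.176 and Ppargc1a -0.255. With quantile normalization they were -0.361, -0.233, -0.219, -0.30 and -0.261. The length and GC correction gave Ckmt2 -0.337, Esrra -0.0222, Nppb -0.00217, Penk -0.0904 and Ppargc1a -0.265. Among libraries with an Rn45s value Col3a1 was -0.189, Fbp2 0.174 and Ppargc1a -0.196. When each library was left out, Fbp2 ran from -0.172 (without sham 3) to 0.0625 (without PS_9561), and after the length and GC correction it was -0.582. Ppargc1a was -0.0651 with TPM scaling. All 33 genes named above for the difference between ventricles kept its sign under TPM scaling, quantile normalization, the length and GC correction and the block, and 17, 21, 28 and 23 of them passed.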

Other observations

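Some genes that fell are in no list and are named here after their values were seen. Aqp7, a channel for glycerol, stood at 36.7, 37.1, 23.9 and 21.5 FPKM in the sham and 19.1, 13.5, 16.6 and 14.9 FPKM in the banded libraries and fell (log2 change -0.83, rescaled -1.21), as did Slc25a22, a mitochondrial glutamate carrier (26.3, 32.2, 29.1 and 26.9 against 19.1, 15.6, 10.5 and 19.3 FPKM), Ldhd, the mitochondrial D-lactate dehydrogenase (41.5, 42.4, 34.9 and 19.2 against 25.9, 13.6, 17.5 and 15.5 FPKM), and Pex11a, a protein of peroxisome division (24.4, 12.1, 10.6 and 10.1 against 7.10, 5.51, 5.49 and 8.14 FPKM). Plxnb1, a semaphorin receptor, stood at 17.9, 20.7, 12.5 and 12.2 FPKM in the sham and 10.5, 6.40, 7.29 and 9.03 FPKM in the banded libraries and fell (log2 change -0.84, rescaled -1.21). Dot1l, the methyltransferase of histone H3 that acts on transcribed genes, stood at 20.4, 19.6, 16.1 and 10.4 FPKM in the sham and 7.17, 9.52, 9.57 and 9.35 FPKM in the banded libraries and fell (log2 change -0.80, rescaled -1.17).

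Small RNA entries were left out of the named genes. Snord82 was listed at 0 in all 4 sham libraries and at 1526, 977, 2788 and 896 FPKM in the banded ones, and Mir6340 at 0 and at 53.9, 42.9, 20.9 and 114 FPKM, and both passed on both scales.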
